A study of Mus musculus with 18 samples.

Results

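Thra, Nr1d2 and Nr2f2 are 3 genes of the nuclear receptor family that were each measured by 1 spot, 3 of the 28704 spots on a mouse cDNA microarray. They were chosen by gene symbol (gene IDs 21833, 353187 and 11819), with their ratios under hypoxia already known. The differences between conditions and durations given for them are therefore descriptions without a test. The tissue was the mouse heart, and the 9 groups were controls, chronic constant hypoxia (CCH) and chronic intermittent hypoxia (CIH), each for 1, 2 or 4 weeks. By the labels, every array paired a male heart (dye Cy5) with a female heart (dye Cy3) of the same condition and duration, and there were 2 arrays per group and 18 in all. Strain, age, oxygen level and the cycle of the intermittent hypoxia are not in the labels, nor is it stated there if a group's 2 arrays used different animals. Any p-value given here therefore measures only the spread between arrays, which may be technical.

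Each value is the log2 ratio of both channels after centring the array on its median spot, so 0 is the ratio of the median spot and 1 is a 2-fold higher ratio. The direction is not in the labels and was likely male over female, because the first of the 2 spots of the Y-linked gene Eif2s3y was above 0 on 17 of 17 arrays, from 1.36 to 3.54. The array without a value there, CIH 4 weeks replicate 1, was at -0.03 on the second spot, which ran from -0.15 to 1.68 over 18 arrays and was lowest on control 4 weeks replicate 1, where the first spot was at 2.63. The pairing of male with female on CIH 4 weeks replicate 1 could thus not be checked with this gene. A change of the ratio cannot show in which sex a transcript moved, and dye and sex cannot be told apart because every array held the male heart in Cy5. Levels of heart markers could not be checked, since the files hold ratios only. The number of spots with a value was 20489 to 24512 at 1 week, 15802 to 19720 at 2 weeks and 12650 to 17904 at 4 weeks. For 1 array, CIH 1 week replicate 1, the title gives 1 week of CIH while the names of both of its sources give 2 weeks of CCH, and the title was followed. Control 2 weeks replicate 1 carries the code 1A, where the digit in the other coded titles is the week. The condition means and the differences from control are given with and without these 2 arrays.

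Nuclear receptors are transcription factors that bind DNA through zinc fingers and, in many members, are switched by small lipid-soluble ligands. Thra encodes thyroid hormone receptor alpha, the main thyroid hormone receptor of the heart, which acts on heart rate and on genes of contraction and calcium handling. Its partner on DNA is a retinoid X receptor (Rxra, Rxrb or Rxrg). Nr1d2 encodes REV-ERB beta, a heme-binding repressor of the circadian clock that acts beside its close relative Nr1d1. Nr2f2 encodes COUP-TFII, an orphan receptor of veins, lymphatic vessels and atrial muscle cells, where it helps to set atrial and venous identity. Thra and Nr1d1 lie on opposite strands and overlap at their ends. Spots with the symbol Nr1d1 were 0, so the transcripts of this gene pair could not be set side by side.

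The DNA just before the start is shown for Nr1d2 and Nr2f2, the members with the larger differences under CIH. The promoter sequences used here held no stretch for Thra. Both stretches hold the 250 bases upstream of the start in RefSeq (build GRCm38.p6), on the minus strand, at chr14:18239107-18239356 for Nr1d2 and chr7:70366747-70366996 for Nr2f2. Capitals mark AGGTCA, the hexamer that many nuclear receptors bind.
Nr1d2: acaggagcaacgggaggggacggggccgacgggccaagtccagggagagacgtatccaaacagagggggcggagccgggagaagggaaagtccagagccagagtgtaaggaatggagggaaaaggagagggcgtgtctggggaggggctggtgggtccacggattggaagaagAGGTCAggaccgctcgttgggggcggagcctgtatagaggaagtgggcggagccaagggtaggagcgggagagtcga
Nr2f2: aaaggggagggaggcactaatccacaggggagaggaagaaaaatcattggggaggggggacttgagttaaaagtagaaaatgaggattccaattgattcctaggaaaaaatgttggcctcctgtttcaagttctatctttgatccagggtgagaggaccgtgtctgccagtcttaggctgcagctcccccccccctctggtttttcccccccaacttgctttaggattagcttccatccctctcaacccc
The hexamer stands once in the Nr1d2 stretch, on the sense strand, with its first base at -77, and it was not found in the Nr2f2 stretch. Of 32851 stretches of this length before RefSeq starts, 14% hold it on either strand. Neither stretch holds ACGTG (the core bound by hypoxia-inducible factors, in 16.6% of stretches), CACGTG (the E-box bound by CLOCK and BMAL1, which contains ACGTG, in 6.02%) or TTATGTAA (the D-box, in 0.819%), on either strand. The GC content was 63.6% for Nr1d2 and 50.0% for Nr2f2. These are matches of letters and describe no binding.

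Under CIH the Nr2f2 ratio was low in male over female, under CCH the Thra ratio was high at 1 and 4 weeks, and the Nr1d2 ratio was high under CIH at 2 and 4 weeks. The fitted difference from control, averaged over the 3 durations, was -1.35 ± 0.25 (SE) for Nr2f2 under CIH, a ratio 2.56-fold lower than in controls. For Nr1d2 under CIH it was 0.43 ± 0.13, a ratio 1.35-fold higher. For Thra under CCH it was 0.64 ± 0.17, a ratio 1.56-fold higher. This Thra average was led by the 1-week difference of 1.49 ± 0.33, which rests on 1 control array. The Thra difference was 0.06 ± 0.27 at 2 weeks and 0.38 ± 0.27 at 4 weeks, where the controls were themselves at 0.45. For Nr2f2 under CCH the difference was -0.43 ± 0.25 (-0.64 ± 0.24 without both arrays of doubtful label), in size no smaller than that of Nr1d2 under CIH. The remaining differences were -0.13 ± 0.13 for Nr1d2 under CCH and 0.05 ± 0.17 for Thra under CIH. Without both arrays of doubtful label CIH minus control was -1.46 ± 0.26 for Nr2f2 and 0.51 ± 0.15 for Nr1d2, and CCH minus control of Thra was 0.58 ± 0.19. With CIH 1 week replicate 1 counted as CCH at 2 weeks, as its sources are named, the values were -1.26 ± 0.28, 0.49 ± 0.13 and 0.64 ± 0.16. Both hypoxia kinds were set against the same controls. The background of these comparisons was low by limma with Benjamini-Hochberg adjustment over 10272 units (genes or unnamed spots). It was 0 units or 0% for CCH minus control (649 at an unadjusted p under 0.05) and 1 unit or 0.00974%, the gene Phtf1, for CIH minus control (1307 unadjusted). For CCH minus CIH it was again Phtf1, 1 unit or 0.00974% (953 unadjusted). The count for CIH minus control rested on single arrays. It was 305 without control 2 weeks replicate 1, 254 and 251 without CCH 2 weeks replicate 1 or 2, 207 without CIH 1 week replicate 2 and 89 without CIH 4 weeks replicate 2, and it was 3 and 2 without control 1 week replicate 2 or control 4 weeks replicate 1. That for CCH minus CIH was 196 without CCH 2 weeks replicate 1 and 0 to 3 without any 1 other array.

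**Figure D1:**
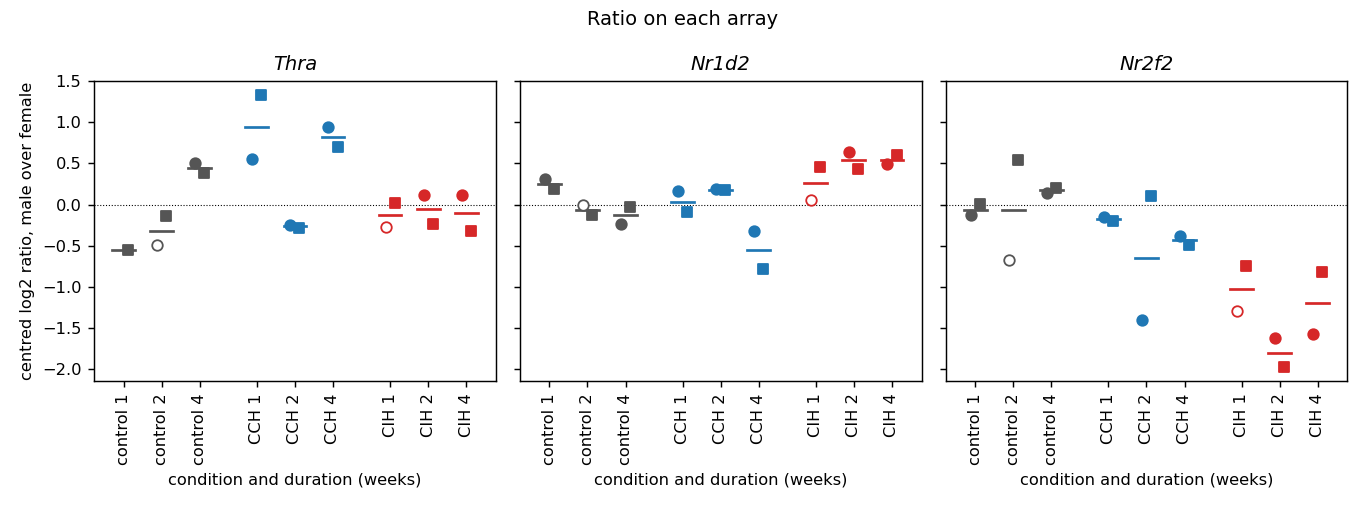
Centred log2 ratio of male over female (y axis) for each array of Thra, Nr1d2 and Nr2f2 by condition and duration in weeks (x axis). Circles are replicate 1, squares replicate 2, bars the mean of a group and open circles the 2 arrays of doubtful label. The 6 CIH arrays of Nr2f2 lie between -1.97 and -0.75, all below the 6 controls.

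Thra, the thyroid hormone receptor gene, had a value on 17 of 18 arrays and none on control 1 week replicate 1. On the other controls its ratio was -0.55 at 1 week (replicate 2), -0.50 and -0.14 at 2 weeks, and 0.51 and 0.38 at 4 weeks. Under CCH it was 0.55 and 1.34 at 1 week, -0.25 and -0.28 at 2 weeks, and 0.94 and 0.70 at 4 weeks. Under CIH it was -0.27 and 0.02 at 1 week, 0.11 and -0.23 at 2 weeks, and 0.11 and -0.32 at 4 weeks. The high arrays were thus the 4 CCH arrays of 1 and 4 weeks, while both 2-week CCH arrays lay among the 2-week controls and the CIH arrays. Ranges of CCH and control overlapped. The mean was 0.50 ± 0.65 (SD, n = 6 arrays) under CCH, -0.06 ± 0.49 (n = 5) in controls and -0.10 ± 0.20 (n = 6) under CIH, so the CCH and control means lay less than 1 SD of the CCH arrays apart. Without control 2 weeks replicate 1 the control mean was 0.05 ± 0.49 (n = 4), and without CIH 1 week replicate 1 the CIH mean was -0.06 ± 0.20 (n = 5).

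By duration, CCH minus control for Thra was 1.49 ± 0.33 (SE) at 1 week, 0.06 ± 0.27 at 2 weeks and 0.38 ± 0.27 at 4 weeks. The 1-week difference rests on 1 control array, since the other had no value. Without both arrays of doubtful label the 2-week value was -0.12 ± 0.35, of opposite sign. All 6 CCH arrays lay above the control mean of their own duration, with differences of 0.04 to 1.89, and the lowest of them were the 2-week arrays. The share of all units for which this holds was not counted, and nothing is read from it. CIH minus control was 0.42 ± 0.33 at 1 week, 0.26 ± 0.27 at 2 weeks and -0.55 ± 0.27 at 4 weeks (0.57 ± 0.40 at 1 week and 0.09 ± 0.35 at 2 weeks without both), and 4 of 6 CIH arrays lay above their controls. The Thra ratio of the controls themselves ran from -0.55 at 1 week to a mean of 0.45 ± 0.09 (SD, n = 2) at 4 weeks. In the order of the 9 group means, CCH at 1 week (0.94) and at 4 weeks (0.82) came first with overlapping arrays, and the 4-week controls (0.45) came next, with no array in the range of either. The 3 CIH groups and CCH at 2 weeks followed within -0.06 to -0.26. The CIH groups overlapped each other, and the arrays of CCH at 2 weeks lay within the range of CIH at 4 weeks but just below those of CIH at 2 weeks. Next came the 2-week controls (-0.32), whose arrays overlapped those of CCH at 2 weeks, and then the control array of 1 week (-0.55).

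Nr1d2, the REV-ERB beta gene, had a value on all 18 arrays. Its control ratios were 0.31 and 0.19 at 1 week, -0.0046 and -0.12 at 2 weeks, and -0.23 and -0.03 at 4 weeks. Under CCH they were 0.16 and -0.10 at 1 week, 0.19 and 0.17 at 2 weeks, and -0.32 and -0.78 at 4 weeks. Under CIH they were 0.06 and 0.46 at 1 week, 0.64 and 0.43 at 2 weeks, and 0.49 and 0.61 at 4 weeks. The CIH arrays were above 0 on 6 of 6 arrays, and all but CIH 1 week replicate 1 lay above every control and every CCH array. CIH 1 week replicate 1, the array of doubtful label, was the lowest of the 6 and lay within the control range. Nothing is read from these positions, because the comparisons were known when the gene was chosen. The share of all units with such positions was not counted. The lowest arrays of all were those of CCH at 4 weeks. The mean was 0.45 ± 0.21 (SD, n = 6) under CIH, 0.02 ± 0.20 (n = 6) in controls and -0.11 ± 0.39 (n = 6) under CCH. Without CIH 1 week replicate 1 the CIH mean was 0.53 ± 0.09 (n = 5), and without control 2 weeks replicate 1 the control mean was 0.02 ± 0.23 (n = 5).

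By duration, CIH minus control for Nr1d2 was 0.0044 ± 0.22 (SE) at 1 week, 0.60 ± 0.22 at 2 weeks and 0.68 ± 0.22 at 4 weeks. Without both arrays of doubtful label it was 0.20 ± 0.28 at 1 week and 0.66 ± 0.28 at 2 weeks. CCH minus control was -0.22 ± 0.22, 0.24 ± 0.22 and -0.42 ± 0.22 at the same durations, with no steady direction (0.30 ± 0.28 at 2 weeks without both). CCH minus CIH, averaged over durations, was -0.56 ± 0.13, and all 6 CCH arrays lay below the CIH mean of their duration. Here too the share over all units was not counted, and nothing is read from it. In the order of the 9 groups, CIH at 4 and 2 weeks (0.55 and 0.54) came first with overlapping arrays. CIH and control at 1 week (0.26 and 0.25) followed, their arrays overlapping, then CCH at 2 weeks (0.18) and at 1 week (0.03), controls at 2 and 4 weeks (-0.06 and -0.13) and CCH at 4 weeks (-0.55). The arrays of CCH at 2 weeks lay just above those of CCH at 1 week, which overlapped the 2-week controls. The arrays of CCH at 4 weeks lay below all others.

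Nr2f2, the COUP-TFII gene, also had a value on all 18 arrays. Its control ratios were -0.13 and 0.01 at 1 week, -0.67 and 0.54 at 2 weeks, and 0.15 and 0.20 at 4 weeks. Under CCH they were -0.15 and -0.20 at 1 week, -1.39 and 0.11 at 2 weeks, and -0.38 and -0.48 at 4 weeks. Under CIH they were -1.30 and -0.75 at 1 week, -1.62 and -1.97 at 2 weeks, and -1.57 and -0.82 at 4 weeks. Every CIH array lay below every control array. That holds for 22 of 9779 units (0.225%) with a value on at least 5 arrays of both conditions, and nothing is read from it, because this comparison was known when the gene was chosen. The CCH arrays overlapped the controls, and 1 of them, CCH 2 weeks replicate 1, lay among the CIH arrays. The mean was -1.34 ± 0.48 (SD, n = 6) under CIH, -0.42 ± 0.52 (n = 6) under CCH and 0.02 ± 0.41 (n = 6) in controls. Without CIH 1 week replicate 1 the CIH mean was -1.35 ± 0.54 (n = 5), and without control 2 weeks replicate 1 the control mean was 0.15 ± 0.25 (n = 5).

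By duration, CIH minus control for Nr2f2 was -0.96 ± 0.43 (SE) at 1 week, -1.73 ± 0.43 at 2 weeks and -1.37 ± 0.43 at 4 weeks. Without both arrays of doubtful label it was -0.69 ± 0.48 at 1 week and -2.34 ± 0.48 at 2 weeks. CCH minus control was -0.12 ± 0.43, -0.58 ± 0.43 and -0.61 ± 0.43, each smaller than 2 SE, but the 2-week value was -1.18 ± 0.48 without control 2 weeks replicate 1. Its average over durations was -0.18 without CCH 2 weeks replicate 1, -0.68 without replicate 2 of that group and -0.23 without control 2 weeks replicate 2. The 2 arrays of a group differed most at 2 weeks, by more than 1 log2 unit in controls and under CCH. The spread of Nr2f2 between arrays of a group (SD 0.514) was higher than that of 94.8% of the units tested, against an SD of 0.275 for Thra and 0.178 for Nr1d2. The 3 control groups (0.17, -0.06 and -0.07) led the order of the 9 groups. CCH at 1, 4 and 2 weeks (-0.18, -0.43 and -0.64) followed, and CIH at 1, 4 and 2 weeks (-1.02, -1.19 and -1.80) came last. The arrays of the 2-week controls spanned those of CCH at 1 and 4 weeks, and the arrays of CIH at 1 and at 4 weeks overlapped.

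**Figure D2:**
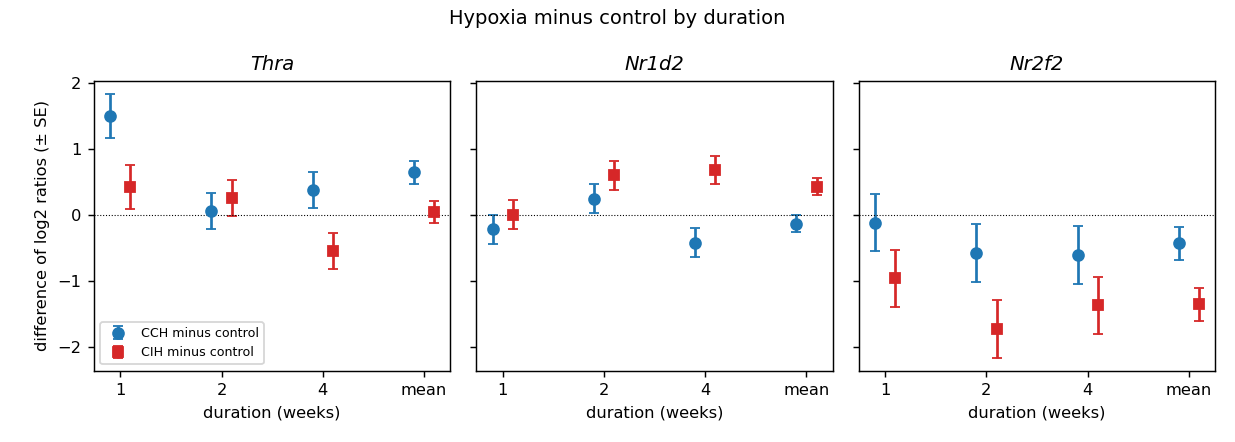
Fitted difference of the log2 male-over-female ratio (y axis, ± SE) of CCH minus control (circles) and CIH minus control (squares) at 1, 2 and 4 weeks and averaged over them (x axis). Nr2f2 is lowest under CIH at each duration, with -1.73 at 2 weeks, and Thra is highest under CCH at 1 week, with 1.49.

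Transcripts of red cells moved with the Nr2f2 ratio. Of 25 red-cell markers, 16 had a spot and 10 a value on every array (Hbb-bh1, Hbb-y, Hba-x, Alas2, Fech, Blvrb, Slc4a1, Car1, Bpgm and Tfrc). The adult globin markers had no usable value, since Hba-a1, Hbb-b2, Hbb-bs and Hbb-bt had no spot, Hba-a2 had no value on any array and Hbb-b1 had 2 values. The median ratio of the 10 markers was -0.23 to 0.94 in controls (median 0.15), -1.69 to 0.90 under CCH (median 0.19) and -1.95 to 0.10 under CIH (median -0.92). Its Pearson correlation with the Nr2f2 ratio was 0.884 over 18 arrays and 0.835 over 16 arrays without CIH 2 weeks replicate 2 and CCH 2 weeks replicate 1, which lay farthest from the median of the markers. Within conditions it was 0.936 under CIH, 0.843 under CCH and 0.659 in controls (6 arrays each). It was 0.886 over 16 arrays without both of doubtful label. The points share the hybridisation and centring of their array. On CIH 1 week replicate 2 the marker median was 0.10, within the range of the controls, and Nr2f2 was at -0.75, below every control. On CCH 4 weeks replicate 1 the marker median was 0.90, close to the highest control, while Nr2f2 was at -0.38.

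The 2-week pairs that disagreed in Nr2f2 disagreed in the red-cell markers in the same direction. In controls the marker median was -0.23 on replicate 1 and 0.37 on replicate 2, and under CCH it was -1.69 and 0.19. The median of atrial muscle markers did so too, at -2.26 and 1.95 in controls and -0.69 and 0.34 under CCH. Leukocyte markers also differed in this direction in both pairs, while endothelial and skeletal muscle markers differed in the opposite direction. By gene, 9 of the 10 red-cell markers correlated above 0 with Nr2f2, up to 0.899 for the embryonic globin gene Hbb-bh1 and 0.867 for Alas2, the first enzyme of heme synthesis in red cells. Car1 (0.122) and the transferrin receptor gene Tfrc (-0.577) did not follow. CIH minus control was -1.52 for Hbb-bh1, -1.74 for the red-cell anion exchanger gene Slc4a1 and -1.73 for Alas2, beside -1.35 for Nr2f2. It was above 0 for Tfrc (0.25), Gata1 (0.14), Klf1 (0.03) and Car1 (0.02), and below 0 for 9 of the 13 red-cell markers tested. Among the 13 red-cell markers tested, 0 passed the limma test for CIH minus control (8 at an unadjusted p under 0.05), and their median was -1.20 beside -0.0066 over all units. The part of red-cell transcripts in the Nr2f2 result was not tested. In whole tissue, fewer cells of a type and less RNA per cell cannot be told apart.

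Over all 18 arrays the markers of other cell types correlated with Nr2f2 less closely than those of red cells. The 7 endothelial markers with values on all arrays had median ratios of -0.23 to 0.33 in controls and -0.27 to 0.12 under CIH, and the 9 fibroblast markers -0.24 to 0.31 and -0.20 to 0.22. Their correlations with Nr2f2 over 18 arrays were 0.10 and 0.02. The 3 atrial muscle markers (Myl4, Myl7 and Sln) varied widely, from -2.26 to 1.95 in controls and from -1.93 to 0.89 under CIH, and correlated with Nr2f2 at 0.47. Within conditions this correlation was 0.750 in controls, above the 0.659 of the red-cell markers there. It was 0.411 under CCH and 0.326 under CIH, below those of the red-cell markers (6 arrays each). All 3 atrial markers were negative in CIH minus control, with a median of -0.65, and 0 passed the limma test (0 also at an unadjusted p under 0.05). The 9 leukocyte markers had medians of -0.53 to 0.12 in controls, -0.84 to 0.03 under CCH and -0.62 to -0.16 under CIH, and correlated with Nr2f2 at 0.49.

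Nr1d2 moved with the median of skeletal muscle markers. Of 13 such markers, 7 had a spot, 5 were tested and 4 had a value on every array (Myh8, Mylpf, Myl1 and Atp2a1). In CIH minus control 2 of the 5 tested were negative and their median was 0.11. None passed the limma test (1 at an unadjusted p under 0.05). Correlations of single markers with Nr1d2 are not given here. The median of the 4 was -0.92 to 0.09 in controls, -0.61 to -0.15 under CCH and -0.13 to 0.20 under CIH, and its correlation with Nr1d2 was 0.700 over 18 arrays. It was 0.732 over 16 arrays without both of doubtful label, 0.771 over 16 without control 4 weeks replicate 1 and control 2 weeks replicate 2, and 0.859, 0.746 and 0.339 within CCH, controls and CIH. Both arrays of CCH at 4 weeks, which were lowest for Nr1d2, had marker medians of -0.61 and -0.60. The correlation of Nr1d2 with the red-cell markers was -0.556. Thra correlated with the red-cell markers at 0.476 over 17 arrays, at 0.934 within the 5 controls, 0.588 within CCH and 0.05 within CIH. The part of these cell types in the results for Nr1d2 and Thra was not tested. Among the other fixed marker lists, the 2 lung markers correlated with the members between -0.22 and -0.10, and of the cardiomyocyte and fat markers 0 had a value on every array.

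**Figure D3:**
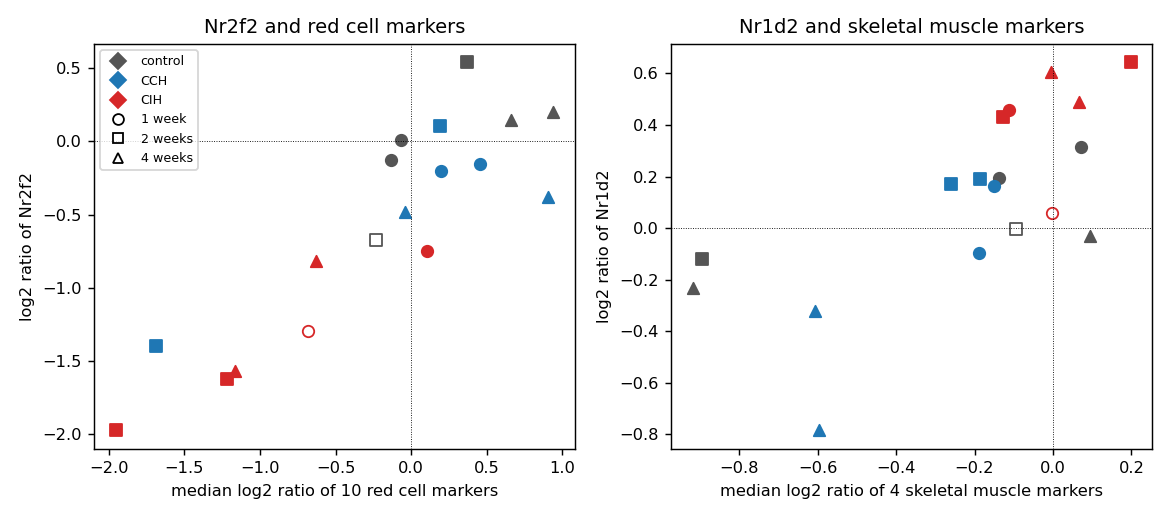
Left, log2 ratio of Nr2f2 (y axis) against the median log2 ratio of 10 red-cell markers (x axis). Right, Nr1d2 against the median of 4 skeletal muscle markers, with 1 point per array, colours for the condition, circles, squares and triangles for 1, 2 and 4 weeks and open symbols for the 2 arrays of doubtful label. Nr2f2 and the marker value correlate at 0.884 over 18 arrays, and at 0.659 in controls, 0.843 under CCH and 0.936 under CIH. Single arrays depart from this, such as CCH 4 weeks replicate 1. The CCH arrays of 4 weeks are low on both axes for Nr1d2.

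The mean ratio over all arrays holds the same values by which the members were chosen and is given for them without a test. It was -0.58 ± 0.10 (SE) for Nr2f2, below 0 on 13 of 18 arrays, while the control mean of that gene was near 0. It was 0.12 ± 0.05 for Nr1d2, above 0 on 11 of 18 arrays, and 0.09 ± 0.07 for Thra, above 0 on 9 of 17. Over all units this mean was tested with limma against 0, with 2845 of 10272 units called (27.7%), 8.99% higher and 18.7% lower. It was 1523 units without both arrays of doubtful label.

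The genes whose ratio followed each member most closely were found among the named genes with a value on every array that had one for the member, which left 5344 genes for Nr1d2 and Nr2f2 (18 arrays) and 5360 for Thra (17 arrays). For Nr2f2 they were Sfi1 (r = 0.972), Stk19 (0.954), the fibroblast growth factor receptor gene Fgfr2 (0.934), 5530401J07Rik (0.933) and Bicdl1 (0.932). Their CIH means were -0.77, -1.22, -1.31, -0.79 and -1.17, and their control means lay between -0.02 and 0.16. For Thra they were Snx3 (0.903), which encodes a sorting nexin of endosomes, Sympk (0.840), Tmem184b (0.824), Nacc1 (0.814) and the lactate transporter gene Slc16a3 (0.814). Their CCH means lay between 0.15 and 0.33. For Nr1d2 they were the chromatin remodeller gene Chd6 (0.850), AI480535 (0.815), Cadm4 (0.814), the glucocorticoid-induced gene Tsc22d3 (0.793) and Cyp4b1-ps2 (0.789). Among the members, Nr1d2 correlated with Nr2f2 at -0.50 over 18 arrays and with Thra at -0.51 over 17, and Thra with Nr2f2 at 0.26. These are descriptions over arrays that share groups and normalization.

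Of 49 nuclear receptor genes, 24 had a spot and 14 could be tested, the members among them. Thrb, Nr1d1 and Nr2f6 had no spot. Nr2f1, the closest relative of Nr2f2, had values on 13 arrays, with -0.13 ± 0.13 (SD, n = 5) in controls, -0.25 ± 0.72 (n = 6) under CCH and -0.22 and 0.28 on the 2 CIH arrays of 1 week. It had no value on the CIH arrays of 2 and 4 weeks, where Nr2f2 had its lowest group means. Among the thyroid receptor partners, Rxrb was at -0.17 ± 0.20 in controls, -0.38 ± 0.20 under CCH and -0.21 ± 0.22 under CIH (n = 6 each), and Rxrg at -0.13 ± 0.54, -0.09 ± 0.33 and 0.01 ± 0.46. Rxra was not tested, and its means were -0.35 ± 0.42 (n = 3), -0.47 ± 0.51 (n = 4) and 0.01 ± 0.30 (n = 6).

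None of the other 11 receptors passed the limma test between conditions. For CCH minus control the counts were 0 higher and 0 lower (1 at an unadjusted p under 0.05), 6 of 11 were negative and the median was -0.11, beside -0.04 over all units. For CIH minus control they were 0 and 0 (0 unadjusted), with 4 of 11 negative and a median of 0.04 beside -0.0066. These averages hide medians of opposite sign. At 1, 2 and 4 weeks the medians were -0.19, 0.19 and -0.17 under CCH (0, 1 and 0 unadjusted). Under CIH they were -0.04, 0.07 and -0.09 (1, 3 and 0 unadjusted), and at each duration 0 of the 11 passed. In the 30 fits run, which include those without each array, 0 of these receptors passed in either comparison. Their largest differences were those of Nr4a1, an immediate early receptor gene (-0.57 ± 0.36 SE under CCH), and of the retinoic acid receptor gene Rara (0.42 ± 0.18 under CCH and 0.34 ± 0.21 under CIH). In the mean over all arrays, where 27.7% of the units were called, 1 of the 11 was higher and 2 were lower. Nr2e1 was at 0.35 ± 0.06 (limma adjusted p = 0.00246; above 0 on 14 of 14 arrays). Rxrb was at -0.25 ± 0.05 (adjusted p = 0.00193; below 0 on 14 of 18). The glucocorticoid receptor gene Nr3c1 was at -0.26 ± 0.05 (adjusted p = 0.00278; below 0 on 17 of 18), from 3 spots of which 1 was at 0.04 and 2 at -0.33.

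**Figure D4:**
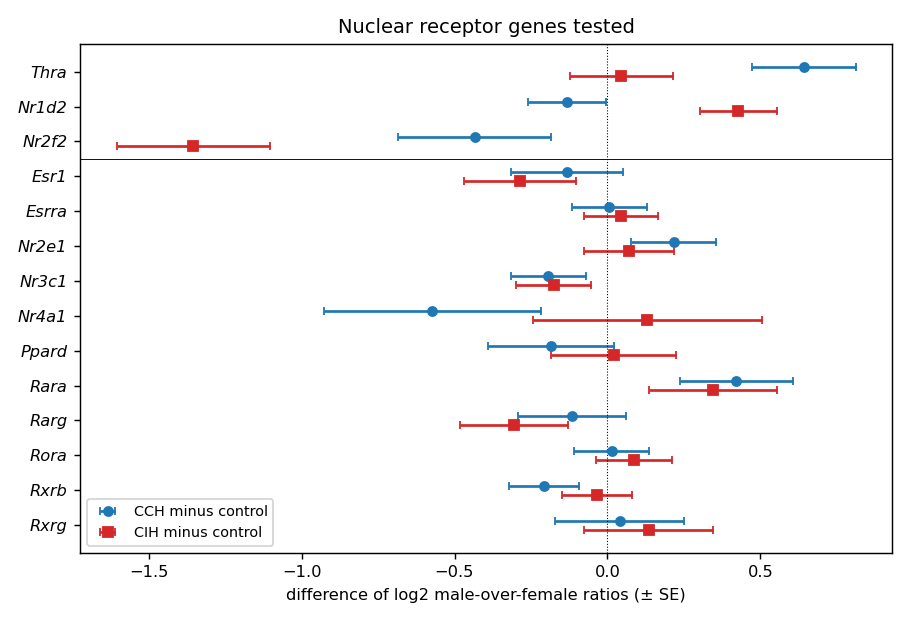
Difference of the log2 male-over-female ratio from control (x axis, ± SE) for the 14 nuclear receptor genes tested (y axis), under CCH (circles) and CIH (squares), averaged over 1, 2 and 4 weeks. The chosen members stand above the line, and the 11 others lie between -0.57 and 0.42.

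The genes around these receptors were counted in lists. Of 36 coregulators, which carry the signal of a bound receptor to chromatin, 21 were tested, and 0 were higher and 0 lower by limma in CCH or CIH minus control (1 and 3 at an unadjusted p under 0.05, medians 0.06 and 0.07). With each spot fitted on its own, 1 of 39 coregulator spots, of Trip12, passed for CIH minus control. Of the other 15 genes tested that handle thyroid hormone or respond to it in the heart, the counts were 0 and 0 for both CCH and CIH minus control (0 and 1 unadjusted, medians 0.04 and 0.10). These averages hide medians of opposite sign. At 1, 2 and 4 weeks the medians were -0.20, 0.29 and -0.0064 under CIH (0, 8 and 1 unadjusted). Under CCH they were -0.13, 0.16 and -0.14 (1, 4 and 0 unadjusted). At 2 weeks of CIH 22.7% of all units had an unadjusted p under 0.05 by limma, and at each duration 0 of the 15 passed. The 15 genes include Atp2a2, the calcium pump of the sarcoplasmic reticulum (0.20 ± 0.18 SE under CCH and 0.23 ± 0.18 under CIH), its inhibitor Pln (0.40 ± 0.29 and 0.49 ± 0.27) and the sodium-calcium exchanger Slc8a1 (0.38 ± 0.26 and 0.55 ± 0.26). Pln was not steady. At 1, 2 and 4 weeks its differences were -0.24, 1.08 and 0.36 under CCH and -0.48, 1.79 and 0.17 under CIH. The amino acid and thyroid hormone transporter subunit Slc3a2 was at -0.60 ± 0.14 under CIH (limma adjusted p = 0.0521). It passed that test in 9 of the 30 fits, among them those without control 2 weeks replicate 1, CIH 1 week replicate 2 or either 2-week CCH array. Of the other 13 clock genes the counts were again 0 and 0 (0 and 1 unadjusted, medians -0.02 and -0.04), with Clock at -0.45 ± 0.21 under CIH, Per1 at -0.13 ± 0.16 and Rora, which competes with the REV-ERB repressors for DNA, at 0.09 ± 0.12. The medians of the clock genes also changed sign with duration. At 1, 2 and 4 weeks they were -0.11, 0.12 and -0.17 under CCH and -0.0044, -0.20 and 0.07 under CIH. Of the other 16 genes of atrial and vascular identity the counts were 0 and 0 (0 and 0 unadjusted, medians 0.05 and -0.03), with the neuropilin gene Nrp2 at 0.18 ± 0.15 under CIH.

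In the mean over all arrays these lists held 3 calls of 21 coregulators and, without the members, 2 of 15 thyroid genes, 3 of 13 clock genes and 1 of 16 atrial and vascular genes, beside the background of 27.7%. Coregulators had 3 higher and 0 lower, the histone demethylase gene Kdm1a (0.41 ± 0.08 SE; limma adjusted p = 0.00254; above 0 on 13 of 18 arrays), Ncoa6 (0.18; adjusted p = 0.011) and Thrap3 (0.26; adjusted p = 0.0223). Hdac3 was next at 0.14 (adjusted p = 0.0549). The other thyroid genes had 0 higher and 2 lower, Rxrb and Dio2, the deiodinase that activates thyroid hormone (-0.22; adjusted p = 0.0237), followed by Slc3a2 (-0.15; 0.0566) and Pln (0.25; 0.121). The other clock genes had 1 higher, Timeless (0.15; adjusted p = 0.0226), and 2 lower, Tef (-0.17; 0.0219) and Tsc22d3 (-0.24; 0.024), with Clock at -0.24 (0.0526). The other atrial and vascular genes had 1 higher, the atrial light chain gene Myl4 (0.27; adjusted p = 0.0245), and 0 lower, with Tbx5 at -0.19 (0.125) and the endothelial receptor gene Tek at 0.15 (0.132). The calls of Thrap3, Dio2, Timeless, Tef, Tsc22d3 and Myl4 were lost without single arrays. These were CCH 1 week replicate 2 for Thrap3, Dio2, Tef and Tsc22d3, CCH 2 weeks replicate 2 for Timeless, Tef, Tsc22d3 and Myl4, and CIH 2 weeks replicate 2 for Dio2, Tsc22d3 and Myl4. They were also CIH 4 weeks replicate 1 for Thrap3 and Tsc22d3, CIH 1 week replicate 1 for Dio2 and Tsc22d3, control 2 weeks replicate 1 for Timeless, control 2 weeks replicate 2 for Tsc22d3, and control 1 week replicate 1 and CCH 4 weeks replicate 1 for Myl4. Adjusted p-values then ran from 0.05 to 0.0616.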

How the data were processed

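RNA of male and female mouse hearts was labelled with Cy5 and Cy3 and hybridised together to a cDNA microarray, per the labels. The authors deposited a log2 ratio per spot and array. Base and scaling were read from the numbers, whose antilogs to base 2 have a mean of 1 on each array. Background correction, spot filter and normalization are not given in the sources used here. Signal and background intensities were not analysed here, so dim spots could not be filtered.

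Arrays were centred on their medians, and spots of 1 gene averaged. Of 28704 spots, 18511 carried 1 symbol in the platform table, 937 several and 9256 none. For 18267 spots the gene ID was in the RefSeq table (GRCm38.p6), which changed 0 symbols. A unit (a gene, or a spot without a single symbol) entered the test where none of the 9 groups lacked a value, which left 10272. Group means were modelled by limma 3.58.1 (lmFit, contrasts.fit and eBayes, R 4.3.3). Tests were two-sided, p-values were adjusted after Benjamini-Hochberg, and 0.05 was the threshold. Gaps were not imputed. For the members, all values are descriptions. The fit was checked on simulated data. It was repeated with other centring and scaling, filters, handling of spots, terms and groupings, and without each array in turn. Figures were drawn with matplotlib 3.10.9.

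The members and lists were chosen with earlier results of these data known. Named genes are the members, their subfamilies and RXR partners, the 5 closest profiles per member, list members past the threshold between conditions, the 4 smallest p-values per list in the mean over all arrays, and Eif2s3y. Further genes named with their values (Nr4a1, Rara, Atp2a2, Slc8a1, Per1, Rora, Nrp2, single red-cell markers and Phtf1) were chosen after these were seen. Replicates follow the letters of the titles (A as 1, B as 2), and arrays without a letter were given 1.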

Additional observations from a re-analysis of the deposited data

Results flagged for a closer look

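In 9 sets of arrays (3 genes in 3 conditions) the highest and lowest arrays were compared with the rest. For Nr1d2 under CIH, the lowest array was CIH 1 week replicate 1 at 0.058, and its gap to the next array was 0.64 of the range of the 6 arrays, above Dixon's critical value. It is the array whose title and source names disagree. Such a gap turns up by chance in about 1 of 20 sets.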

How the results depend on the processing

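The condition differences of Thra, Nr1d2 and Nr2f2 moved by less than the SD between arrays of a group in every fit run. Leaving out 1 array in turn, CIH minus control of Nr2f2 ran from -1.56 to -1.15, that of Nr1d2 from 0.361 to 0.495, and CCH minus control of Thra from 0.511 to 0.772. The mean over all arrays ran from -0.663 to -0.496 for Nr2f2 and from 0.093 to 0.144 for Nr1d2. For Thra it turned sign once among the processing alternatives, at -0.012. No value for Thra could be had without control 1 week replicate 2 or with units on all arrays.

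Over all units, CIH minus control had 192 calls with no centring, 0 with scaling to a common spread or additive condition and duration, 109 with units on all arrays, 115 with the median of spots and 199 with each spot on its own. Without 1 array it had 1 to 305. CCH minus CIH had 0 with scaling, spots on their own or additive terms and 0 to 196 without 1 array, CCH minus control and both hypoxia kinds minus control 0 to 1, and the mean over all arrays 1981 to 3178. It was 1523 without both arrays of doubtful label, a setting chosen after seeing the data. The cause of these moves was not tested. With a replicate block for the letter of the title, CIH minus control had 169 calls, but it is not known if the letters pair the arrays. Of 21 pairs of groups with both letters, 9 deviated together with r over 0.1 (range -0.54 to 0.447, median -0.04), which cannot settle it.

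By spot, 1 spot of Nr3c1 was at 0.040, 1 of Thrap3 at -0.021 and 1 of Myl4 at -0.043, against the sign of the gene mean. Over the processing alternatives, single spots among them, the mean over all arrays also moved for other called genes. It ran from 0.031 to 0.258 for Timeless and from -0.362 to -0.125 for Tsc22d3. For Dio2 it ran from -0.273 to -0.167 and for Tef from -0.218 to -0.129. The number of arrays limits all of these values.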
